A study of Zea mays with 13 samples.

Results

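The MIR396 genes of maize are the 8 features of the count tables named zma-MIR396a to zma-MIR396h, taken by name, out of 154 microRNA genes and 43943 features in all. Their H3K4me3 and H3K9ac were read by chromatin immunoprecipitation and sequencing (ChIP-seq), with H3K27me3 beside them, in immature wrapped leaves of the inbred B73. Plants were raised in a greenhouse with normal watering to the V5-V6 leaf stage and then kept for 10 days with 75% of disposable water (well watered, NS) or 25% (drought stressed, WS), with the same salt concentration in both. Leaves were taken at the end of those 10 days (T0) or 7 days later (T7), when both groups had gone through the recovery period. For every mark each of the 4 groups was sequenced as 1 library, and 1 library of whole chromatin without immunoprecipitation came from well-watered plants at T0. Whether a library pooled several plants is not given in the sources used here. The tissue label could not be set against marker genes, since the gene models carry no names in the tables used here.

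The microRNA miR396 pairs with transcripts of growth-regulating factors (GRFs), transcription factors that keep leaf cells dividing, and lowers their level. In Arabidopsis miR396 accumulates as leaf cells leave the dividing zone, and its level is raised by TCP factors, which are themselves targets of miR319. In rice and maize GRFs and their partner proteins set leaf and organ size. The marks H3K9ac and H3K4me3 are found at promoters in use, whereas Polycomb complexes lay down H3K27me3 at silenced genes. A mark at a microRNA gene describes its chromatin, not the amount of the mature microRNA.

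H3K4me3 libraries held 2793985 to 6876219 counts over all features, H3K9ac libraries 1152884 to 1856159 and H3K27me3 libraries 1612935 to 1969485. Among the H3K4me3 libraries the stressed T0 library was the shallowest and the well-watered T0 library the deepest. The well-watered T0 libraries also stood apart in contrast, the fold between the 95th and 25th percentile of enrichment over all features, at 40.1 for H3K4me3 against 22.4 to 23.0 in the others and at 6.74 for H3K9ac against 4.50 to 4.82. Whole chromatin gave the 8 MIR396 genes 47 to 81 counts each in a window of 1 kb at the start site, and 3 to 12 over the gene itself. H3K4me3 counts reached 526 at a gene with 5 whole-gene counts of whole chromatin, so that the 1 kb window served as the background of H3K4me3 and H3K9ac. Enrichment is the TMM-scaled count of a mark over that window, given as a fold above the 25th percentile of the same library. A gene is called marked when that fold is at least 2 in all 4 libraries of the mark.

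Within the family both active marks were highest at 3 members, zma-MIR396d, zma-MIR396c and zma-MIR396a. At zma-MIR396d H3K4me3 counts were 526 (T0) and 325 (T7) in well-watered plants, and 168 (T0) and 409 (T7) after stress. Scaled to library size, in the order well-watered T0, stressed T0, well-watered T7 and stressed T7, these are 79.5, 60.8, 80.7 and 67.8 CPM (TMM-scaled), and an enrichment of 16.9-fold to 36.3-fold. Among the 154 microRNA genes it ranked 2 or 3 in each of the 4 libraries, and it stood above 88.4% to 95.3% of all features. At zma-MIR396c the H3K4me3 counts in this order were 389, 133, 220 and 339, or 58.8, 48.1, 54.6 and 56.2 CPM. It was enriched 12.7-fold to 25.5-fold, ranked 6 to 8 among the microRNA genes and stood above 79.2% to 85.0% of all features. At zma-MIR396a they were 157, 51, 167 and 213, or 23.7, 18.5, 41.5 and 35.3 CPM. The T0 libraries were the low ones here and the T7 libraries the high ones, without overlap, while zma-MIR396c spanned only 1.22-fold from its lowest to its highest library. zma-MIR396a was enriched 7.98-fold to 18.7-fold.

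H3K9ac gave the same 3 genes the highest levels of the family. zma-MIR396d held 117, 89, 49 and 62 H3K9ac counts in the order above, zma-MIR396c 106, 82, 54 and 70, and zma-MIR396a 54, 37, 36 and 25. Their enrichment was 3.09-fold to 6.45-fold, 3.23-fold to 5.54-fold and 2.77-fold to 4.63-fold, lower than for H3K4me3, as the contrast over all features was. All 3 were marked for H3K9ac. Both marks were thus called at 3 of 8 MIR396 genes (37.5%). Of the other 146 microRNA genes, 33 were marked for H3K4me3 (22.6%) and 12 for H3K9ac (8.22%), and of all measured features 60.0% and 31.1%. In families of other microRNAs of leaf growth (MIR160, MIR164, MIR166, MIR319 and MIR390), 7 of 28 genes were marked for H3K4me3 and 0 of 28 for H3K9ac. These shares describe the libraries and were not tested.

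**Figure D1:**
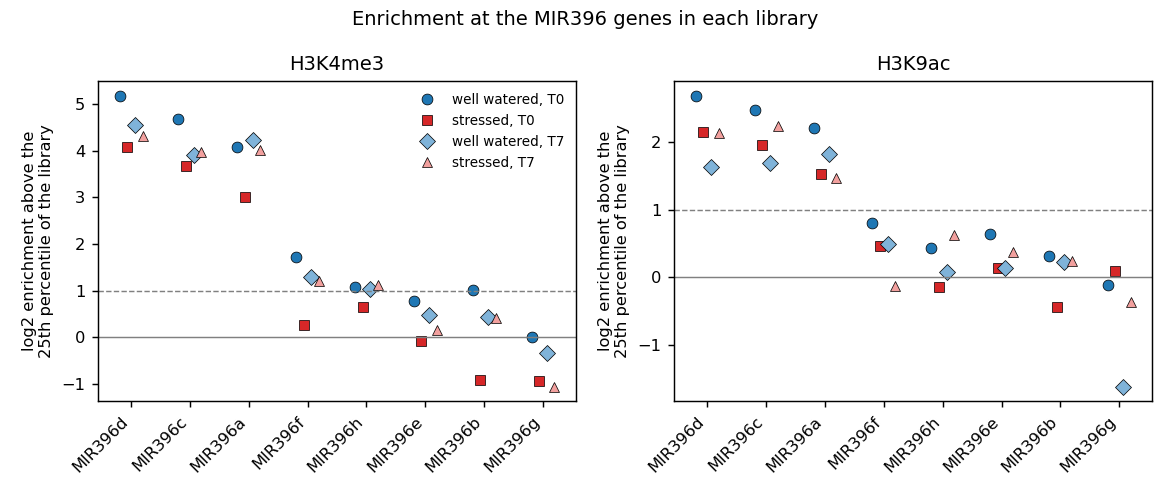
Log2 enrichment of H3K4me3 (left) and H3K9ac (right) at each MIR396 gene above the 25th percentile of the library, 1 point for each library, with the genes in the order of their mean H3K4me3 and a dashed line at the 2-fold limit for a marked gene. MIR396d, MIR396c and MIR396a lie above the line in all 4 libraries of both marks, and no other member does.

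The remaining 5 genes lay at or near the background. For H3K4me3 zma-MIR396f came next in the order of mean enrichment, with 45, 11, 32 and 45 counts and 1.20-fold to 3.27-fold, so that it missed the 2-fold limit in the stressed T0 library alone. zma-MIR396h followed with 24, 12, 22 and 35 counts and 1.57-fold to 2.17-fold, likewise short of the limit in that library alone. zma-MIR396e (27, 10, 21 and 25) and zma-MIR396b (30, 5, 19 and 28) ranged from 0.949-fold to 1.71-fold and from 0.529-fold to 2.02-fold. zma-MIR396g was the lowest, with 12, 4, 9 and 8 counts, and did not exceed the 25th percentile in any library. In the order of mean H3K4me3, the ranges over libraries of zma-MIR396a and zma-MIR396f did not overlap, and all other neighbours in the order overlapped. The same held for H3K9ac, where the 5 lower genes had counts of 4 to 31 and enrichments of 0.325-fold to 1.74-fold. Over the 8 genes the order of H3K4me3 followed that of H3K9ac with Spearman correlations of 0.762 to 0.929 within a group, against 0.819 to 0.877 over all 43580 measured features. These correlations share the whole-chromatin counts as denominator.

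**Figure D2:**
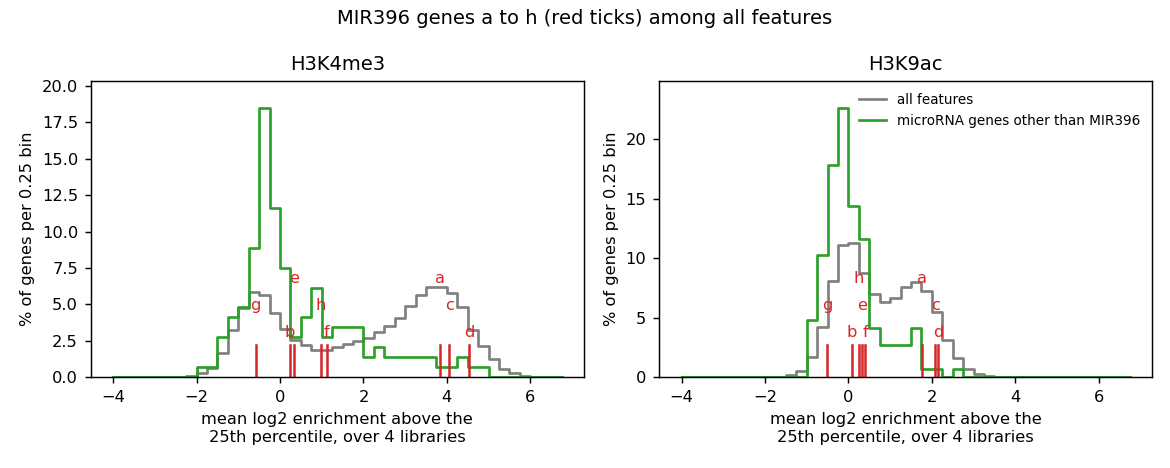
Share of features (grey) and of the other microRNA genes (green) by mean log2 enrichment over the 4 libraries of H3K4me3 (left) and H3K9ac (right), with a red tick for each MIR396 gene, a to h. MIR396a, MIR396c and MIR396d lie in the upper mode of all features. For H3K4me3 MIR396f (1.12) and MIR396h (0.97) lie in the valley between the modes, and MIR396e, MIR396b and MIR396g lie lower.

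Neighbouring members differed. In the RefSeq annotation of the later assembly Zm-B73-REFERENCE-NAM-5.0, used here only for which genes neighbour or overlap each other, zma-MIR396a and zma-MIR396e are adjacent, as are zma-MIR396f and zma-MIR396g. Within each pair the locus of the first overlaps an annotated long noncoding RNA (LOC112679203 and LOC118472125), and that of the second does not. Set against whole chromatin, H3K4me3 at zma-MIR396a was 8.42-fold to 14.4-fold that at zma-MIR396e over the 4 libraries, and H3K9ac 2.13-fold to 3.21-fold. In each library of both marks the 95% interval of this difference, with the counting error of whole chromatin included, lay above 0 on the log2 scale, the lowest bound being 0.11 for H3K9ac in the stressed T7 library. zma-MIR396f exceeded zma-MIR396g 2.30-fold to 4.82-fold for H3K4me3, with the interval reaching below 0 in the stressed T0 library, and 1.19-fold to 4.30-fold for H3K9ac, with the interval above 0 in the well-watered T7 library alone. The loci of zma-MIR396c and zma-MIR396d each overlap a protein-coding gene (LOC103645767 and LOC100273701). Overlap here means any shared stretch on either strand, so that a member need not lie within the gene it overlaps. The loci of zma-MIR396b and zma-MIR396h overlap each other, so that some reads may be counted at both. Their windows did not hold the same counts, with 76 and 58 of whole chromatin. Between them the interval held 0 in every library for H3K9ac. For H3K4me3 it did so in every library but the stressed T0 one, where zma-MIR396h was the higher.

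Members that overlap an annotated protein-coding or long noncoding gene were thus zma-MIR396a, zma-MIR396c, zma-MIR396d and zma-MIR396f. Of these 3 of 4 were marked for H3K4me3, against 0 of 4 of the others. Over the other microRNA genes the same split gave 26 of 76 marked (34.2%) with such an overlap and 7 of 69 (10.1%) without. For H3K9ac it gave 8 of 76 (10.5%) and 4 of 69 (5.80%). For H3K4me3, 3 of 12 other microRNA genes that overlap a protein-coding gene were marked (25.0%) and 30 of 133 that do not (22.6%). Whether the counts at a member belong to the gene that it overlaps was not tested.

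The microRNA genes most like the top and bottom of the family were sought by the root mean square difference of log2 enrichment over the 8 libraries of the active marks. Nearest to zma-MIR396d among 146 genes outside the family were zma-MIR159a (0.406), zma-MIR168a (0.411) and zma-MIR168b (0.488). The microRNA miR168 acts on the transcript of ARGONAUTE1, the protein that loads plant microRNAs, and miR159 on transcripts of GAMYB factors. Within the family zma-MIR396c was closer still (0.364). Nearest to zma-MIR396g were zma-MIR2275c (0.391), zma-MIR169p (0.394) and zma-MIR172e (0.456). The microRNA miR2275 triggers phased small RNAs in grass anthers.

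H3K27me3 counts at the MIR396 genes were 0 to 7 in every library, and none of the 8 reached 40 counts over the 4 libraries or the 20 whole-gene counts of whole chromatin needed for a call. Summed over the libraries, the 8 genes held 63 H3K27me3 counts against 53 of whole chromatin, a fold per total count with a 95% interval of 1.23 to 2.64. The other microRNA genes together gave 1.84-fold (1.71 to 1.98). Within the family 33 of these counts lay at the overlapping zma-MIR396b and zma-MIR396h, against 9 of whole chromatin, a ratio of 5.34-fold (2.60 to 13.2). The 6 other members gave 1.04-fold (0.627 to 1.68) from 30 counts against 44. The overlapping loci may hold the same reads counted at both, in which case the interval of the pair is too narrow. With 17 and 16 they are also the members with the most H3K27me3 counts, and the interval does not allow for such a choice of the pair. In the order of libraries above, zma-MIR396b held 5, 7, 1 and 4 H3K27me3 counts and zma-MIR396h 4, 7, 2 and 3.

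Differences between a pair of libraries have no replicate. They were read by a rule of size: at least 40 counts over the 4 libraries of the mark, a scaled ratio of at least 1.5-fold and an exact counting interval, at a 2-sided error of 0.1%, that leaves out 1. Intervals printed are 95% conditional binomial intervals and cover counting error only. All 8 members had enough counts for H3K9ac and 7 for H3K4me3, where zma-MIR396g held 33.

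At the end of the drought 0 of 7 MIR396 genes passed the rule for H3K4me3 (1.97% of all 35654 features did) and 0 of 8 for H3K9ac (1.27% of 41294). H3K4me3 log2 ratios of stressed over well-watered plants lay below 0 at 6 of 7 members, with a median of -0.35, against 17444 of 35654 features and a median of 0.01. With the trend removed zma-MIR396h also lay below 0, at -0.02. zma-MIR396d had a ratio of -0.38 (95% interval -0.65 to -0.13), from 168 against 526 counts, and zma-MIR396c of -0.29 (-0.58 to -0.001). zma-MIR396a had -0.35 (-0.85 to 0.10). The lower counts at zma-MIR396b, 5 against 30, gave -1.21 (-3.05 to 0.05). Summed over the 8 genes, 394 counts in stressed plants stood against 1210 in the deeper well-watered library, a log2 ratio of -0.36 (-0.53 to -0.19). Most of these counts lay at zma-MIR396d, zma-MIR396c and zma-MIR396a, so that the sum mainly describes those genes. Without zma-MIR396d it was -0.34 (-0.56 to -0.12). The other microRNA genes summed to 0.06 (-0.002 to 0.12). For H3K9ac the summed ratio of the family was -0.19 (-0.41 to 0.03) and that of the other microRNA genes 0.19 (0.12 to 0.26). With the trend of the ratio on enrichment removed, the family sums were -0.34 (-0.51 to -0.17) for H3K4me3 and -0.14 (-0.36 to 0.08) for H3K9ac. That trend was not removed from the sums of the other microRNA genes, and whether the sets differ apart from it was not tested. Of the 8 members, 7 lay below 0 for H3K9ac, from -0.42 at zma-MIR396b to -0.02 at zma-MIR396f, and zma-MIR396g had 0.53 (-0.55 to 1.66). With the trend of the ratio on enrichment removed, 5 of 8 lay below 0, with zma-MIR396c at 0.02 and zma-MIR396d at 0.003, and with total counts 6 of 8, with zma-MIR396f at 0.03. Each single H3K9ac interval held 0.

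After recovery 0 of 7 members passed the rule for H3K4me3 (0.191% of all features) and 0 of 8 for H3K9ac (0.194%). H3K4me3 at zma-MIR396d stood at 409 counts in previously stressed and 325 in well-watered plants, a log2 ratio of -0.25 (-0.46 to -0.04), on the same side as at T0. zma-MIR396c had 0.04 (-0.21 to 0.29) and zma-MIR396a -0.23 (-0.53 to 0.07). The sum over the family was -0.15 (-0.28 to -0.01), and -0.08 (-0.25 to 0.09) without zma-MIR396d. For H3K9ac the values of zma-MIR396c and zma-MIR396d were 0.49 (-0.04 to 1.03) and 0.45 (-0.11 to 1.03), and the family sum was 0.23 (-0.05 to 0.50). The difference between the drought ratios at both times was not tested.

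A drought effect shared by both times was asked from all 4 libraries of a mark, with additive terms for watering and time (edgeR quasi-likelihood test, Benjamini-Hochberg adjusted over all features). This model has 1 residual degree of freedom per gene, which is the difference between both times. The edgeR test draws that error toward the trend over all features. Its p-values thus rest also on the spread of other features, and not on that of the gene alone. It called 0 of 7 MIR396 genes for H3K4me3 (0.0028% of all features, 1 in number) and 0 of 8 for H3K9ac (0.00242%). Unadjusted p was under 0.05 at 1 member for H3K4me3 and at 0 for H3K9ac, and DESeq2 called 0 members with 0 at that unadjusted level. The member was zma-MIR396d, whose fitted drought term in edgeR was -0.31 on the log2 scale, with SE 0.10, unadjusted p = 0.00331 and adjusted p = 0.584.

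**Figure D3:**
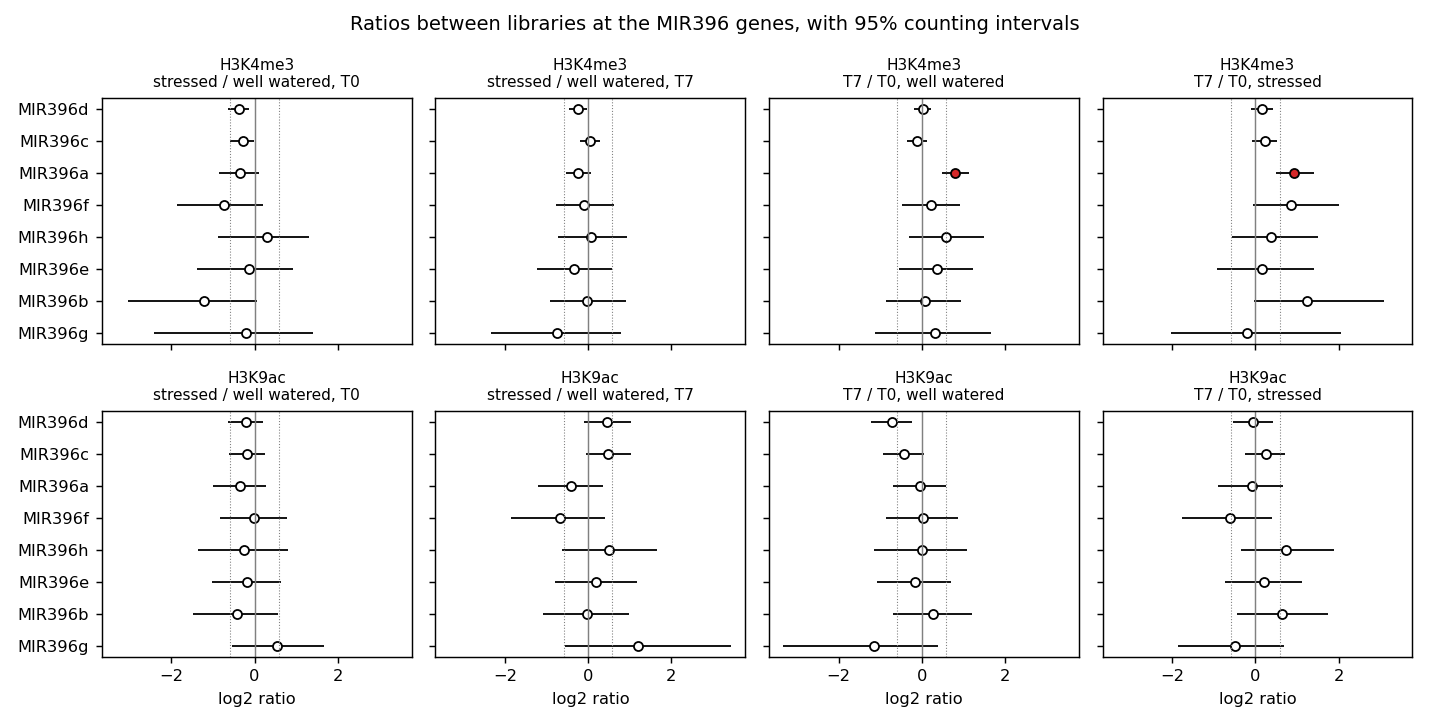
Log2 ratios at each MIR396 gene for H3K4me3 (top row) and H3K9ac (bottom row) in the comparisons of watering at T0 and T7 and of time in each watering, with 95% counting intervals and dotted lines at 1.5-fold. Red points pass the rule of size, which is MIR396a for H3K4me3 over time in both waterings, and open points do not.

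Over the 7 days of recovery zma-MIR396a was the 1 member past the rule of size, for H3K4me3. In well-watered plants its H3K4me3 count was 157 at T0 and 167 at T7 in a shallower library, a log2 ratio of 0.80 (0.48 to 1.13), or 1.75-fold. In stressed plants it was 51 at T0 and 213 at T7, a log2 ratio of 0.93 (0.49 to 1.41), or 1.90-fold. Both comparisons, which share no library, passed the rule as higher at T7, as did 1.3% of all features in well-watered and 0.522% in stressed plants. In well-watered plants 465 features were higher and 621 lower by the rule, and with scaling by total counts 565 and 455, zma-MIR396a among the higher under both. Of 35654 features 9 were higher by the rule in both waterings (1.94% of those in well-watered and 4.84% of those in stressed plants), and zma-MIR396a was the 1 microRNA gene among them. In the additive edgeR fit its time term, T7 over T0, was 0.86 on the log2 scale with SE 0.16 and adjusted p = 0.00117. That fit called 1 of 7 MIR396 genes, beside 3.9% of all features, of which 0.869% were higher and 3.03% lower. Of 116 microRNA genes tested it called 4. Beside zma-MIR396a, zma-MIR172c was higher (0.84, edgeR adjusted p = 0.0468), and zma-MIR156k (-0.56, adjusted p = 0.0459) and zma-MIR159e (-0.63, adjusted p = 0.0149) were lower. In plants miR156 acts on SPL transcripts and miR172 on those of AP2-like factors, both in the passage from juvenile to adult growth. DESeq2 gave zma-MIR396a a time term of 0.87 with SE 0.33 (unadjusted p = 0.00846, adjusted p = 1) and called 0 of 35654 features, with 403 at an unadjusted p under 0.05. The well-watered T0 library, which stood apart in contrast, enters the first of both comparisons and not the second, and with the trend of the ratio on enrichment removed the values were 0.85 and 0.92, still past the rule.

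H3K9ac at zma-MIR396a did not pass the rule over time, with 54 counts at T0 and 36 at T7 in well-watered plants (-0.04, -0.70 to 0.59) and 37 and 25 in stressed plants (-0.09, -0.89 to 0.68). In both waterings the intervals of the 2 marks overlap only at their ends, which does not show that the marks changed alike. The difference between the marks was not tested. The adjacent zma-MIR396e had H3K4me3 ratios over time of 0.36 (-0.54 to 1.23) and 0.15 (-0.91 to 1.42), from 10 to 27 counts, which leaves a change as large as that of zma-MIR396a within the interval.

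**Figure D4:**
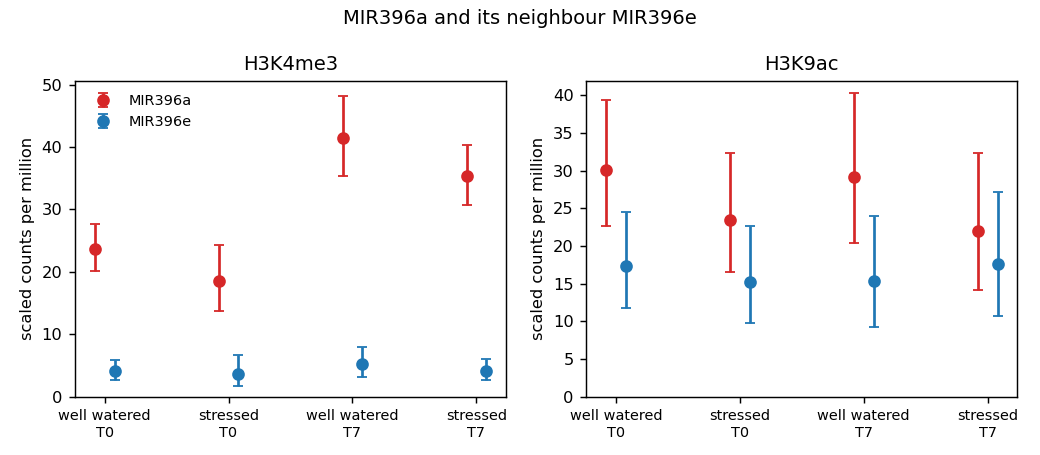
TMM-scaled CPM of H3K4me3 (left) and H3K9ac (right) at MIR396a (red) and the adjacent MIR396e (blue) in each library, with exact 95% Poisson intervals. H3K4me3 at MIR396a was 23.7 and 18.5 at T0 and 41.5 and 35.3 at T7, while its H3K9ac intervals overlap between all libraries.

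The other members did not pass the rule over time for either mark. For H3K4me3 it took 1 of 7 members in each watering (3.05% of all features in well-watered and 2.26% in stressed plants, in either direction). The strongly marked zma-MIR396d had 0.02 (-0.18 to 0.22) in well-watered and 0.15 (-0.11 to 0.43) in stressed plants. zma-MIR396c had -0.11 (-0.35 to 0.14) and 0.22 (-0.07 to 0.52), so that for these genes a 1.5-fold difference lies outside both intervals. Members short of the limit for a marked gene had wider intervals. zma-MIR396f had 0.23 (-0.48 to 0.91) and 0.86 (-0.07 to 2.01), and zma-MIR396b 0.07 (-0.85 to 0.93) and 1.25 (-0.03 to 3.09). In stressed plants all 7 tested members lay above 0, with a median of 0.38 against -0.02 over all features, and the family sum was 0.36 (0.19 to 0.53). Of the other microRNA genes 69 of 109 lay above 0, with a median of 0.20 and a sum of 0.13 (0.06 to 0.19). This comparison uses the same stressed T0 library as the drought comparison at T0, and in scaled H3K4me3 counts that library was the lowest of the 4 at 6 of the 8 members. In well-watered plants 6 of 7 lay above 0 with a median of 0.23. With the trend removed 4 of 7 did with a median of 0.06, and zma-MIR396b (-0.42) and zma-MIR396e (-0.08) turned below 0. The family sum was 0.15 (0.02 to 0.27), or 0.23 (0.06 to 0.40) without zma-MIR396d, beside 0.17 (0.11 to 0.22) for the other microRNA genes. With the trend removed the family sum was 0.17 (0.04 to 0.30), and the sum of the other microRNA genes was not read that way.

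For H3K9ac over time 0 of 8 members passed the rule in well-watered (1.44% of all features) and 0 of 8 in stressed plants (0.308%), and the additive fit called 0 members and 0 of all 41294 features (edgeR, 0%; unadjusted p under 0.05 at 0 members and 1876 features; DESeq2 0 features, 34 at that level). The 1 member whose interval left out 0 was zma-MIR396d in well-watered plants, with 49 counts at T7 and 117 at T0, a log2 ratio of -0.71 (-1.23 to -0.23). In stressed plants it was -0.05 (-0.54 to 0.43). The family sum was -0.34 (-0.58 to -0.09) in well-watered and 0.08 (-0.18 to 0.33) in stressed plants, and -0.20 (-0.49 to 0.08) in well-watered plants without zma-MIR396d. At zma-MIR396g the counts at T0 and T7 were 14 and 4 with full watering and 18 and 9 after stress, and both intervals held 0.

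Among the 28 other leaf growth microRNA genes, 22 had enough H3K4me3 counts and 25 enough H3K9ac counts. The rule took 0 of them in either drought comparison for either mark. Over time it took 1 for H3K4me3 in each watering and 0 for H3K9ac. Their median H3K4me3 ratio at the end of the drought was 0.20, where that of the MIR396 genes was -0.35, or -0.28 with the trend on enrichment removed. The trend was not removed for the leaf growth genes, whose median log2 H3K4me3 enrichment was lower (0.29 against 1.04). Its removal moved zma-MIR396e, at low enrichment, from -0.13 to -0.63 and zma-MIR396d, at high enrichment, from -0.38 to -0.28. Whether the 2 sets differ apart from the trend was not tested. Over time in stressed plants the median of the leaf growth genes was 0.28, where that of the MIR396 genes was 0.38.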

How the data were processed

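ChIP-seq read counts of 3 histone marks were taken as the authors deposited them: raw counts per feature, called raw in the names of the deposited tables and whole numbers in them, with 12 immunoprecipitated libraries and 1 of whole chromatin. CASAVA 1.8 and Bowtie2 with B73 RefGen_v4 are named in the submitters' processing notes. For the counting program, the windows of the marks and duplicate removal no source used here gives details, and the 1 kb window for the active marks is an assumption.

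Feature names were matched without regard to case. TMM factors (edgeR 4.0.16, limma 3.58.1, R 4.3.3) scaled the libraries of each mark among features with at least 40 counts in all, and DESeq2 1.42.0 was the alternative tool. Log2 values carry a prior of 0.5 counts, and enrichment was ranked over features with at least 20 whole-chromatin counts. The whole-chromatin library served for all groups, so that differences in chromatin input between groups were not measured. Intervals and ratios were computed with scipy 1.17.1. The SE given for an edgeR term is its size over the square root of its test statistic F. It thus restates the test, whereas the SE of DESeq2 comes from its fit. Intervals of differences between neighbouring members hold the counting error of whole chromatin by a normal approximation on the log scale, chosen after seeing the data. The additive fit and the rule of size were tested on simulated data. The simulated libraries had the same profile apart from the planted changes. They therefore do not show how either behaves where libraries differ in contrast, as these do. Libraries are single, so that p-values rest on the spread around the additive model, shared in part across features, and nothing says whether that spread is biological. Every MIR396 gene is named. The 3 microRNA genes nearest to the highest and to the lowest member are named by rule, and the 3 other microRNA genes called over time were named after their values were seen. The members and lists were chosen with earlier results of these data known. RefSeq names were matched by synonym for 153 of 154 microRNA genes and all 8 members. The coordinates of that assembly served only to find overlaps and neighbours, and no reads were counted by them. GRF genes were not analysed here, because the gene models carry no names in the tables used here.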

Additional observations from a re-analysis of the deposited data

How the results depend on the processing

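With DESeq2 in place of edgeR the number of MIR396 genes called for H3K4me3 over time went from 1 to 0, and zma-MIR396a had an adjusted p of 1 (9.72e-05 to 0.00117 under the edgeR settings); the cause was not tested. Other counts of members called, marked or past the rule of size were the same under total counts, DESeq2 size factors, removal of the trend on enrichment, no filter on low counts and no minimum ratio, and, for marked genes, no minimum of whole-chromatin counts. A limit of 3-fold for marked genes kept 3 members for H3K4me3 and left 2 for H3K9ac, where zma-MIR396a reached 2.77-fold in its lowest library. Over all features edgeR called 1387 to 1685 for H3K4me3 over time and 1 to 21 between waterings, the latter number with library totals over all features, which was added after seeing the data. The summed H3K4me3 ratio of the family at T7, -0.15 between waterings, had an interval that reached 0 with total counts (-0.12), with the trend removed (-0.12) and without zma-MIR396d (-0.08). Without zma-MIR396h, also added after seeing the data, the summed H3K4me3 ratios were -0.37, -0.15, 0.14 and 0.35 (drought at T0 and T7, time in well-watered and stressed plants). Against whole-gene counts of whole chromatin, 3 to 12 per member, no member could be called marked. The log2 H3K4me3 levels then were 9.04 at zma-MIR396c, 8.78 at zma-MIR396d and 7.21 at zma-MIR396a, and 3.01 to 5.18 at the others. Depth limits the lower members: 95% intervals of H3K4me3 ratios had half-widths of 0.20 to 0.27 at zma-MIR396d and of 0.894 to 1.56 at zma-MIR396b on the log2 scale. No paired analysis was possible because no group has a second replicate whose number could serve as a block, and no replicate could be left out. The additive fit holds watering and time as terms of 1 model, which is not a block of replicates.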
